A study of Sus scrofa with 7 samples.

Results

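The tricarboxylic acid (TCA) cycle and the carriers that move its metabolites in and out of mitochondria were followed through 32 genes in infarcted pig heart. The genes were a fixed list of symbols, and all 32 were found among the 20638 gene symbols of the table. All 32 also had enough reads to be among the 15652 genes tested. Where a symbol had several transcript rows, the one of highest mean stood for the gene.

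RNA came from heart muscle of the anteromidventricular region of male farm pigs, sampled 14 weeks after infarction through the left circumflex coronary artery. Every animal carried an infarct and was treated with AAV5, an adeno-associated virus used as a gene vector, so that no group was free of infarct or of vector. In the 3 libraries labelled hrLuc the vector carried luciferase, a reporter enzyme, and in the 4 libraries labelled S100a1 the cargo was human S100A1, a calcium sensor of cardiomyocytes. The titles name each library as 1 pig, and the sources used here give neither the promoter of the vectors nor the age of the animals.

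In the TCA cycle, acetyl groups from pyruvate, fatty acids, ketone bodies and amino acids are joined to oxaloacetate and oxidised, and the electrons released are passed to the respiratory chain as NADH. The inner mitochondrial membrane does not let NADH through, so the malate-aspartate shuttle carries reducing equivalents from the cytosol inward by a pair of transaminases, a pair of malate dehydrogenases and membrane carriers. Heart muscle relies on oxidation for nearly all its ATP and is densely packed with mitochondria. Reactions that refill the cycle (anaplerosis), that drain it, or that turn its intermediates into NADPH connect it to biosynthesis and to antioxidant defence.

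With 1 row per gene the libraries held 28651643 to 38376242 reads. Values are normalized read counts, in which reads per transcript had been divided by 1 factor per library. They are not corrected for transcript length, so that levels were not compared between genes. The pig S100A1 gene ranged from 6568 to 9125 normalized counts in hrLuc and from 4429 to 6804 in S100a1. The sources used here do not say whether reads of the human sequence were counted, so the labels could not be checked with it, and the libraries are named by label throughout. Cardiomyocyte markers were abundant in every library. MYH7, the slow myosin heavy chain, ranged from 962373 to 1170230 normalized counts, and the summed level of 10 markers ranged from 1932690 to 2216940 in hrLuc and from 2026030 to 2213930 in S100a1. In bulk tissue, fewer cells of a type and less RNA per cell cannot be told apart.

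None of the 32 genes passed the threshold between the S100a1 and hrLuc libraries, an adjusted p under 0.05 in limma with Benjamini-Hochberg adjustment over 15652 genes. The smallest adjusted p among them was 0.582. Over all genes tested 0.0128% passed. At an unadjusted p under 0.05 there was 1 of the 32 genes (3.12%), the cytosolic malic enzyme ME1, against 8.27% of all genes tested. Among all genes tested 3.69% reached that p on the higher and 4.57% on the lower side. In 2 of the 32 genes (6.25%) the values of the 2 groups were separate, against 9.27% of all genes tested. ME1 was separate on the lower side, as were 5.31% of all genes tested, and NNT on the higher side, as were 3.96%. Both shares of the 32 genes were below those of the whole table, but they rest on 1 and 2 genes and do not set the 32 apart from it. In the authors' deposited table, too, 0 of the 32 genes had an adjusted p under 0.05, against 0.661% of the 18003 rows kept with an adjusted p, and the smallest was 0.345, that of ME1.

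**Figure D1:**
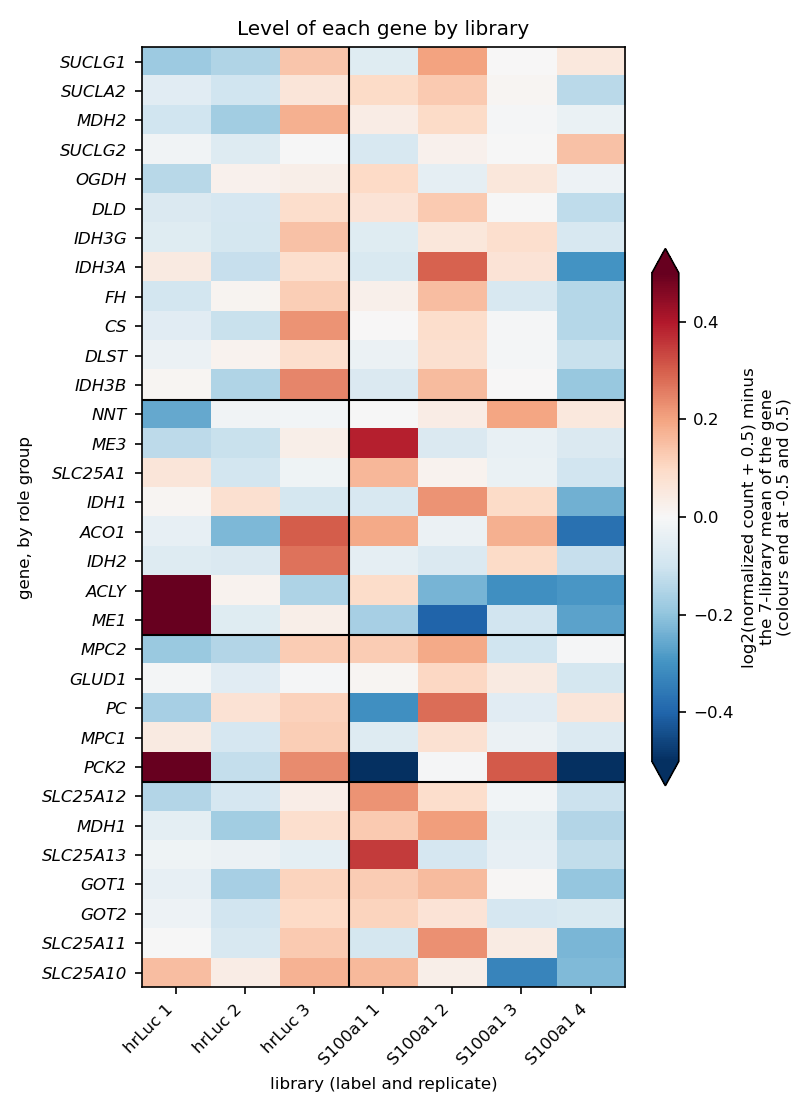
Level of each of the 32 genes (rows, grouped by role) in each of the 7 libraries (columns), as log2(normalized count + 0.5) minus the mean of the gene over the 7 libraries. Red is above and blue below the mean of the gene. The hrLuc replicate 3 and S100a1 replicate 2 columns are mostly red and the S100a1 replicate 4 column mostly blue, while ME1, ACLY and PCK2 are deepest red in hrLuc replicate 1.

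The differences between groups were mostly small, and their bounds lay mostly within 0.5 on the log2 scale. Fold changes are S100a1 over hrLuc on the log2(value + 0.5) scale, with a standard error. Of the 32 genes, 18 had a positive log2 fold change, with a median of 0.0078, against 43.5% positive and a median of -0.024 over all genes tested. This split rests on the scaling, since 14 were positive with quantile normalization and 25 with median centring. The log2 fold change was under 0.1 in size in 23 of the 32 genes, against 45.9% of all genes tested. The 95% confidence interval lay wholly between -0.5 and 0.5 in 29 of the 32 genes, against 61.4% of all genes tested, and wholly between -0.3 and 0.3 in 16 of them, against 30.3%. The 3 genes with wider bounds were ME1, ACLY and PCK2. The median residual SD of the 32 genes was 0.142 on the log2 scale, against 0.162 over all genes tested. All genes tested were not matched to the 32 for read level, so these shares do not show that the set was unusually steady.

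**Figure D2:**
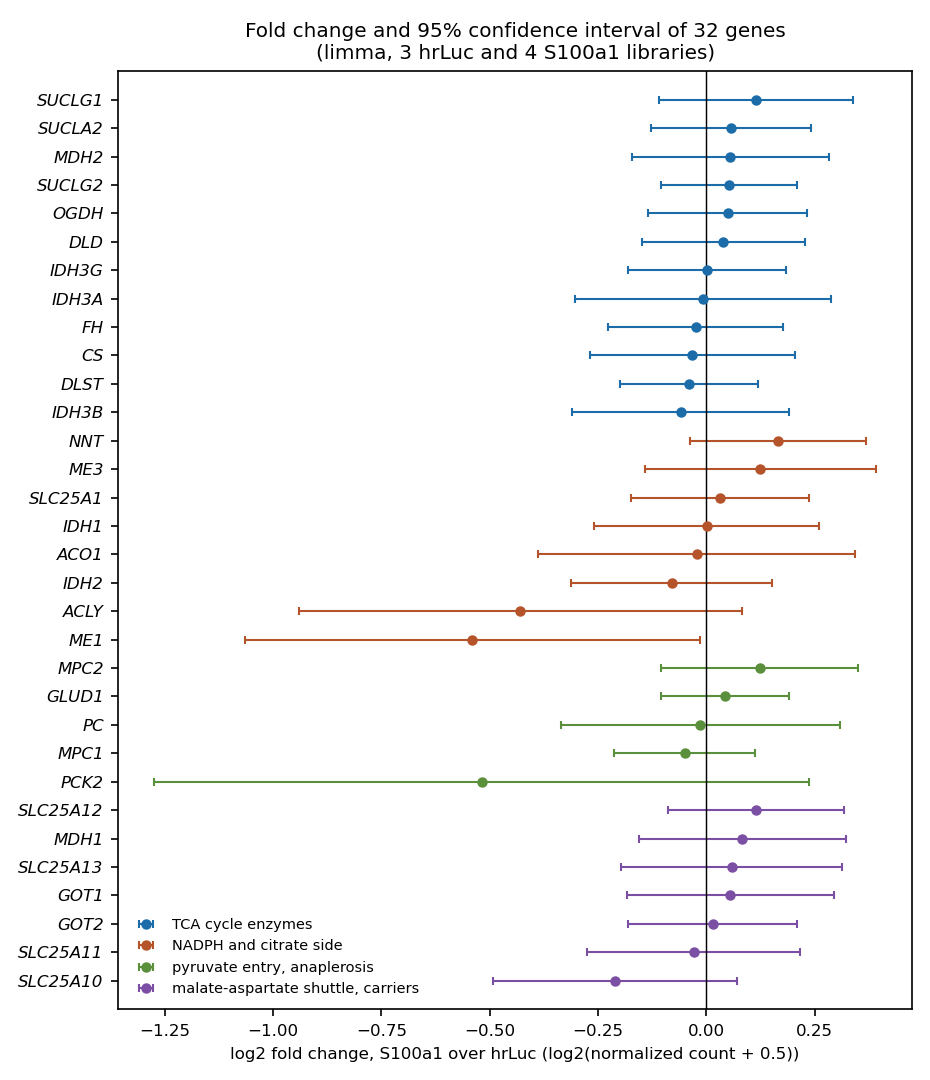
The log2 fold change of S100a1 over hrLuc (points) and its 95% confidence interval (bars, limma, unadjusted) for the 32 genes, coloured by role. The intervals of 31 genes include 0, that of ME1 runs from -1.06 to -0.016, and those of ME1, ACLY and PCK2 are the ones that reach beyond -0.5.

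Among the 12 mitochondrial enzymes of the cycle itself 0 passed, and the log2 fold changes ran from -0.059 (IDH3B) to 0.11 (SUCLG1). Of these, 7 were positive, but 4 with quantile normalization and 11 with median centring. CS, citrate synthase, joins acetyl-CoA to oxaloacetate and serves widely as a marker of mitochondrial content. The 3 hrLuc libraries, in replicate order, had normalized counts of 28280, 27239 and 34384. The 4 S100a1 libraries had 29491, 31236, 29334 and 26661. The groups overlapped, and hrLuc replicate 3 was the highest and S100a1 replicate 4 the lowest of the 7. CS had a log2 fold change of -0.033 ± 0.10, with a 95% confidence interval from -0.27 to 0.20 (adjusted p = 0.937, limma).

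The genes of the NAD-dependent isocitrate dehydrogenase, which makes alpha-ketoglutarate, had group means close together. IDH3A, the catalytic subunit, had 10562 ± 758 (SD, n = 3) in hrLuc, against 10607 ± 1829 (SD, n = 4) in S100a1. Both ends of its range were in S100a1, at 8548 in replicate 4 and 12889 in replicate 2. IDH3B and IDH3G, the other subunits, had log2 fold changes of -0.059 ± 0.11 and 0.0011 ± 0.080 (adjusted p = 0.894 and 0.999, limma). The alpha-ketoglutarate dehydrogenase complex takes the next step, and the fold changes of its components OGDH, DLST and DLD were 0.049 ± 0.081, -0.041 ± 0.070 and 0.039 ± 0.082 on the log2 scale (adjusted p from 0.881 to 0.905, limma). The intervals of these 3 genes stayed between -0.20 and 0.23.

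Succinyl-CoA ligase, which makes a nucleoside triphosphate directly, had the 2 smallest p-values of the cycle enzymes. SUCLG1, the alpha subunit shared by both forms of the enzyme, lies on chromosome 3 from 60142340 to 60177497 (Sscrofa11.1). Its normalized count was 7710, 7872 and 9621 in hrLuc and 8378, 10053, 8769 and 9075 in S100a1. Of the hrLuc libraries, replicates 1 and 2 lay below all 4 S100a1 libraries and replicate 3 above 3 of them. SUCLG1 had a log2 fold change of 0.11 ± 0.098, with an interval from -0.11 to 0.34 (adjusted p = 0.755, limma), and it was 0.056 without hrLuc replicate 1, 0.064 without S100a1 replicate 2 and 0.22 without hrLuc replicate 3. SUCLG2, the beta subunit of the GTP-forming enzyme (chromosome 13, 48650851 to 49090521), had 6185, 5987 and 6253 in hrLuc and 5935, 6368, 6258 and 6942 in S100a1. Its groups overlapped, with both the lowest and the highest value in S100a1 (log2 fold change 0.052 ± 0.069, adjusted p = 0.844, limma). SUCLA2, the beta subunit of the ATP-forming enzyme, was at 0.057 ± 0.081 (adjusted p = 0.858, limma). S100a1 replicate 4 held the highest SUCLG2 and the lowest SUCLA2 of the 7 libraries. FH, fumarase, and MDH2, the malate dehydrogenase that closes the cycle, were at -0.025 ± 0.089 and 0.055 ± 0.10 (adjusted p = 0.945 and 0.892, limma).

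On the side of citrate export and NADPH supply 0 of 8 genes passed. ME1, the malic enzyme of the cytosol, turns malate into pyruvate and yields NADPH for fatty acid synthesis, and lies on chromosome 1 from 82799878 to 82989895. Its normalized count was 504, 249 and 265 in hrLuc and 231, 197, 243 and 216 in S100a1. All 4 S100a1 libraries lay below the 3 hrLuc libraries, but the margin between hrLuc replicate 2 and S100a1 replicate 3 was small, and hrLuc replicate 1 stood far above every other library. The log2 fold change was -0.54 ± 0.23, with an interval from -1.06 to -0.016 (unadjusted p = 0.0447, adjusted p = 0.582, limma). An exact two-sided permutation of the log2 values gave p = 0.0286, unadjusted, the smallest that 35 splits allow. Separate groups always form the most extreme split on their side, so this p adds little to the separation itself. Without hrLuc replicate 1 the log2 fold change of ME1 was -0.22 (unadjusted p = 0.150 in limma).

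ACLY, ATP citrate lyase, splits citrate in the cytosol into acetyl-CoA and oxaloacetate for lipid synthesis, and lies on chromosome 12 from 20796678 to 20841301. Its normalized count was 1732, 958 and 849 in hrLuc and 1009, 806, 764 and 773 in S100a1. As in ME1, hrLuc replicate 1 was the highest library, whereas hrLuc replicates 2 and 3 lay within the range of S100a1. In log2 terms the fold change of ACLY was -0.43 ± 0.23 (adjusted p = 0.635, limma). It was -0.12 without hrLuc replicate 1, -0.54 without hrLuc replicate 2 and -0.63 without hrLuc replicate 3. SLC25A1, the carrier that exports citrate from mitochondria upstream of ACLY, ranged from 509 to 565 in hrLuc and from 507 to 608 in S100a1, with hrLuc replicate 1 second to S100a1 replicate 1 (log2 fold change 0.032 ± 0.091, adjusted p = 0.932, limma). Some markers of other cell types were also high in hrLuc replicate 1. The summed level of 6 adipocyte markers was 11052 in that library, within the range of the other 6, from 8603 to 13545. Most of this sum was PLIN4, a lipid droplet protein, at 9323. ADIPOQ, adiponectin, was at 516 in hrLuc replicate 1 against 148 and 229 in hrLuc replicates 2 and 3, and at 435, 884, 71.7 and 250 in S100a1. PLIN1, CIDEC, FABP4 and LEP, too, were highest in replicate 1 within hrLuc, and each was higher still in S100a1 replicate 2. FABP4, at 1018 in hrLuc replicate 1, was lower there than in all 4 S100a1 libraries, at 1073, 1274, 1072 and 1184. PLIN1 was at 110.1 in hrLuc replicate 1 and 110.3 in S100a1 replicate 1, and LEP was also higher in S100a1 replicate 4. LEP, leptin, was at 0 in hrLuc replicate 3 and at most 12.2 elsewhere. The sum of 5 T cell markers was 590 in hrLuc replicate 1 and from 186 to 446 in the other 6 libraries, and that of 8 fibroblast markers, 150466, was the highest of the 7. The part of these cell types in the values of ME1 and ACLY was not tested.

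NNT was the 1 gene whose S100a1 libraries all lay above the hrLuc libraries. It encodes the nicotinamide nucleotide transhydrogenase of the inner membrane, which uses the proton gradient to make mitochondrial NADPH, and lies on chromosome 16 from 28157192 to 28248732, where it overlaps LOC733587. Its normalized count was 15135, 17840 and 17900 in hrLuc and 18005, 18510, 20717 and 18703 in S100a1. The gap between hrLuc replicate 3 and S100a1 replicate 1 was small beside the spread within each group. NNT had a log2 fold change of 0.17 ± 0.089, with an interval from -0.037 to 0.37 (unadjusted p = 0.0978, adjusted p = 0.635, limma), and the exact two-sided permutation p was 0.0571. As with ME1, the permutation p adds little to the separation of the groups. Without hrLuc replicate 1, the lowest library, the log2 fold change was 0.085, and without hrLuc replicate 3 it was 0.21. The value also moved with the scaling, to 0.076 with quantile normalization (unadjusted p = 0.380, limma) and to 0.21 with median centring (unadjusted p = 0.0456, limma).

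The other NADPH-linked genes overlapped between the groups. IDH2, the NADP-dependent isocitrate dehydrogenase of mitochondria, was at -0.080 ± 0.10, and IDH1, its cytosolic counterpart, at 0.00097 ± 0.11 (adjusted p = 0.837 and 0.999, limma). ACO1, the cytosolic aconitase that doubles as an iron-regulatory protein, was at -0.023 ± 0.16 (adjusted p = 0.976, limma), with 2221 normalized counts in S100a1 replicate 4 and 3550 in hrLuc replicate 3 as its extremes. ME3, the NADP-dependent malic enzyme of mitochondria, had 4355, 4419 and 4865 in hrLuc and 6249, 4542, 4651 and 4542 in S100a1. One library, S100a1 replicate 1, stood above the rest, and the log2 fold change of ME3, 0.12 ± 0.12 (adjusted p = 0.780, limma), was 0.012 without it.

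**Figure D3:**
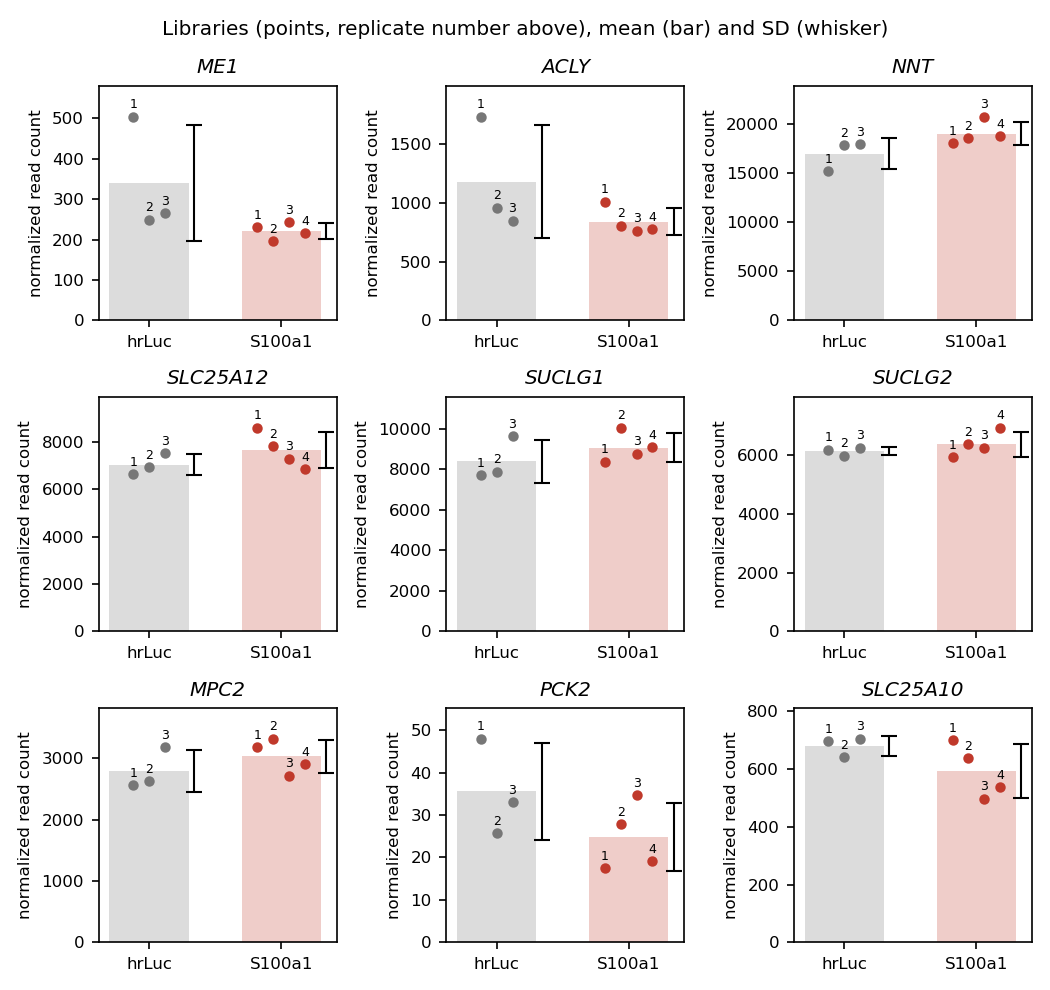
Normalized read counts (vertical axes, from 0) of 9 genes in the hrLuc and S100a1 libraries, with points for libraries, the replicate number above each point, bars for the mean and whiskers for the SD. In ME1 and ACLY the hrLuc replicate 1 point, at 504 and 1732, is well above all others, and in the other 7 genes the groups overlap or nearly touch.

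Pyruvate enters mitochondria through a carrier formed by MPC1 and MPC2, and 0 of the 5 genes of pyruvate entry and of filling and draining the cycle passed. MPC2, on chromosome 4 from 83069914 to 83091687, had 2559, 2629 and 3179 in hrLuc and 3178, 3323, 2716 and 2906 in S100a1. As with SUCLG1, hrLuc replicates 1 and 2 lay below all S100a1 libraries and hrLuc replicate 3 among them (log2 fold change 0.12 ± 0.10, adjusted p = 0.745, limma). Without hrLuc replicate 1 it was 0.064, and without hrLuc replicate 3 it was 0.22. MPC1 was at -0.051 ± 0.072 (adjusted p = 0.858, limma), and at 0.040 when its lowest transcript row stood for the gene. PC, pyruvate carboxylase, refills the cycle with oxaloacetate. It ranged from 445 to 541 in hrLuc and from 403 to 606 in S100a1, so that the S100a1 range enclosed that of hrLuc (log2 fold change -0.014 ± 0.14, adjusted p = 0.983, limma). GLUD1, glutamate dehydrogenase, which turns glutamate into alpha-ketoglutarate, was among the steadiest, at 4545 ± 84.4 (SD, n = 3) in hrLuc, against 4686 ± 261 (SD, n = 4) in S100a1 (log2 fold change 0.043 ± 0.065, adjusted p = 0.867, limma).

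PCK2, the mitochondrial phosphoenolpyruvate carboxykinase, which draws oxaloacetate out of the cycle, had the fewest reads of the 32 genes. It lies on chromosome 7 from 75187195 to 75197613, and its normalized count was 48.0, 25.7 and 32.9 in hrLuc and 17.5, 27.8, 34.6 and 19.2 in S100a1. The groups overlapped, with the highest value in hrLuc replicate 1 and the lowest in S100a1 replicate 1. PCK2 had a log2 fold change of -0.52 ± 0.33, with an interval from -1.27 to 0.24 (adjusted p = 0.670, limma). It was -0.28 without hrLuc replicate 1, -0.73 without hrLuc replicate 2 and -0.55 without hrLuc replicate 3. At this depth the gene sets only a wide bound.

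The 7 genes of the malate-aspartate shuttle and of dicarboxylate exchange also had 0 past the threshold, with 5 positive log2 fold changes, 3 with quantile normalization and 6 with median centring. MDH1, the cytosolic malate dehydrogenase, was at 0.083 ± 0.11, and the aspartate aminotransferases GOT1 (cytosolic) and GOT2 (mitochondrial) were at 0.055 ± 0.11 and 0.014 ± 0.086 (adjusted p = 0.836, 0.896 and 0.971, limma). SLC25A11, which exchanges alpha-ketoglutarate for malate, was at -0.030 ± 0.11 (adjusted p = 0.947, limma). SLC25A12 and SLC25A13 encode the aspartate-glutamate carriers aralar and citrin, which calcium activates from the outer face of the inner membrane. SLC25A12, on chromosome 15 from 77895935 to 78021930 and overlapping LOC106506280, had 6638, 6932 and 7520 in hrLuc and 8591, 7810, 7277 and 6827 in S100a1. The groups overlapped, with S100a1 replicates 1 and 2 above all hrLuc libraries and the other 2 among them. SLC25A12 had a log2 fold change of 0.11 ± 0.090, with an interval from -0.090 to 0.32 (adjusted p = 0.737, limma). It was 0.055 without S100a1 replicate 1 and 0.16 without hrLuc replicate 3. SLC25A13 had 1459, 1452 and 1434 in hrLuc and 1888, 1397, 1439 and 1360 in S100a1. Only S100a1 replicate 1 lay above hrLuc, and the log2 fold change of 0.058 ± 0.11 (adjusted p = 0.899, limma) was -0.050 without that library.

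SLC25A10, the dicarboxylate carrier that exchanges malate and succinate for phosphate, had the smallest p of this group. It lies on chromosome 12 from 1191242 to 1197439 and overlaps LOC110255939. Its normalized count was 695, 640 and 704 in hrLuc and 699, 637, 497 and 536 in S100a1. S100a1 replicates 3 and 4 were lower than all other libraries, while replicates 1 and 2 were at about the level of hrLuc. SLC25A10 had a log2 fold change of -0.21 ± 0.12, with an interval from -0.49 to 0.070 (adjusted p = 0.651, limma). It was -0.13 without S100a1 replicate 3 and -0.30 without S100a1 replicate 1 (unadjusted p = 0.0290 for the latter, limma).

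Ratios between paired genes, which cancel a factor shared by a whole library, were described for 9 pairs without a test. Because counts were not corrected for length, they compare libraries and not the 2 genes. The ratio of MDH1 to MDH2, cytosolic to mitochondrial, was 0.513 ± 0.026 (SD, n = 3) in hrLuc, against 0.523 ± 0.039 (SD, n = 4) in S100a1. That of GOT1 to GOT2 was 0.682 ± 0.020 (SD, n = 3) and 0.702 ± 0.046 (SD, n = 4). The ratio of SLC25A12 to SLC25A13 was 4.86 ± 0.354 (SD, n = 3) and 5.05 ± 0.425 (SD, n = 4), and that of IDH3A to IDH3B was 2.66 ± 0.203 (SD, n = 3) and 2.76 ± 0.200 (SD, n = 4). The ratio of SUCLG2 to SUCLA2, the GTP-forming to the ATP-forming subunit, was 0.980, 0.976 and 0.914 in hrLuc and 0.846, 0.887, 0.947 and 1.16 in S100a1, with S100a1 replicate 4 above the other 6. The ratio of MPC1 to MPC2 was 1.30 ± 0.11 (SD, n = 3) in hrLuc, against 1.16 ± 0.089 (SD, n = 4) in S100a1, and the groups overlapped through S100a1 replicate 3, at 1.27. The ratio of ME1 to ME3 was the 1 of the 9 in which the groups did not overlap. ME1 alone was already separate, as were 9.27% of all single genes tested, and that share was not computed for ratios. The lowest ratio was that of S100a1 replicate 1, the library of the high ME3 value. It was 0.116, 0.0564 and 0.0544 in hrLuc and 0.0370, 0.0433, 0.0522 and 0.0475 in S100a1, so that hrLuc replicate 1 again stood far apart.

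**Figure D4:**
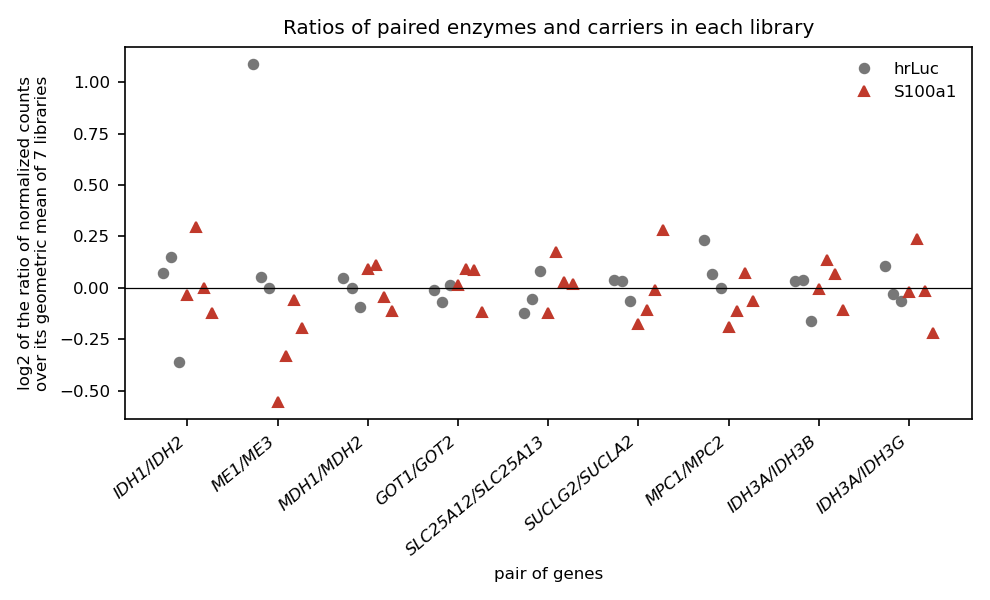
Ratios of normalized counts for 9 pairs of genes (horizontal axis) in each library, as log2 of the ratio over its geometric mean of the 7 libraries (vertical axis), with circles for hrLuc and triangles for S100a1. The groups are interleaved in 8 pairs. In ME1/ME3 the hrLuc circles lie above the triangles, with replicate 1, at a ratio of 0.116, far above.

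The same few libraries were high or low in many of the 32 genes, and they did not follow the labels. The highest library exceeded the lowest by a median factor of 1.30 over the 32 genes, against 1.40 over all genes tested. S100a1 replicate 2 was the highest library in 12 of the 32 genes and hrLuc replicate 3 in 9, where these libraries were the highest in 14.9% and 19.1% of all genes tested. S100a1 replicate 4 was the lowest in 15 of the 32, against 13.8% of all genes tested, and hrLuc replicate 3 in 0. The median of the 32 deviations from each gene's own mean was 0.094 in hrLuc replicate 3 and 0.083 in S100a1 replicate 2 on the log2 scale. It was 0.019 in S100a1 replicate 1, -0.0037 in S100a1 replicate 3, -0.039 in hrLuc replicate 1, -0.084 in hrLuc replicate 2 and -0.12 in S100a1 replicate 4. High and low libraries thus occurred under both labels. The summed cardiomyocyte markers were highest in the same 2 libraries, at 2216940 in hrLuc replicate 3 and 2213930 in S100a1 replicate 2. S100a1 replicate 1 was close behind at 2196590. The lowest were hrLuc replicate 2 at 1932690, hrLuc replicate 1 at 1959560 and S100a1 replicate 4 at 2026030. MYH7 is the largest part of that sum, and it peaked, with RYR2 and PLN, in S100a1 replicate 1. TNNT2 and CKM peaked in S100a1 replicate 3, ATP2A2 in hrLuc replicate 1 and ACTC1 in hrLuc replicate 2. TNNI3 and MYL2 were highest in S100a1 replicate 2 and MYL3 in hrLuc replicate 3. With the mean log2 level of these markers as a covariate, 0 of the 32 genes passed the threshold in limma, 0 had an unadjusted p under 0.05, and their median log2 fold change was -0.012. Fibroblast markers, 8 genes in all, had negative log2 fold changes in 8 of 8 (median -0.27, 0 past the threshold, limma), with sums of 129588 to 150466 in hrLuc and 82848 to 135094 in S100a1. Markers of smooth muscle and pericytes were negative in 6 of 6 (median -0.36), with sums of 14792 to 21387 in hrLuc and 13788 to 16888 in S100a1. T cell markers were negative in 5 of 5 (median -0.79), with sums of 232 to 590 in hrLuc and 186 to 288 in S100a1. These 3 lists kept those signs with quantile normalization and with median centring. Endothelial markers were negative in 6 of 7 (median -0.069), and in 5 of 7 with median centring, with sums of 25268 to 28636 in hrLuc and 24480 to 27153 in S100a1. Macrophage markers were negative in 3 of 6, and in 2 of 6 under either other scaling, with sums of 5227 to 7213 in hrLuc and 4650 to 7651 in S100a1. Adipocyte markers were positive in 4 of 5 tested (median 0.15), and in 5 of 5 under either other scaling. Cardiomyocyte markers were positive in 5 of 10 (median 0.031). In limma 0 genes of these lists passed the threshold. At an unadjusted p under 0.05 in limma there were 3 lower fibroblast and 2 lower T cell markers. On the higher side there were 1 endothelial, 1 cardiomyocyte (RYR2) and 1 adipocyte marker (FABP4). Over all genes tested 3.69% reached that p on the higher and 4.57% on the lower side. The part of these cell types in the fold changes of the 32 genes was not tested.

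A further list of 38 genes around the cycle was read in the same way, and 34 of them were tested. GLUD2 and SLC25A18 were not among the gene symbols, and OGDHL and PCK1 had too few reads. Of the 34 tested, 0 passed the threshold (limma), 20 were positive and 14 negative, with a median log2 fold change of 0.0065. With quantile normalization 17 were positive, and with median centring 22. At an unadjusted p under 0.05 there were 3 higher and 1 lower, against 3.69% and 4.57% of all genes tested. The 3 were GLUL, glutamine synthetase (0.24 ± 0.083), and the mitochondrial deacylases SIRT3 (0.42 ± 0.15) and SIRT5 (0.27 ± 0.12). The 1 lower gene was SLC16A1, a monocarboxylate transporter for lactate and pyruvate (-0.23 ± 0.072). SLC16A1 had 9275, 8402 and 9149 in hrLuc and 7645, 8188, 7453 and 7136 in S100a1, so that the 2 groups were separate (adjusted p = 0.534, limma). The subunits of succinate dehydrogenase, a cycle enzyme that is also part of the respiratory chain, were at 0.0030 ± 0.081 (SDHA), 0.11 ± 0.078 (SDHB), -0.017 ± 0.076 (SDHC) and -0.074 ± 0.071 (SDHD).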

How the data were processed

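The members and gene lists were chosen with earlier results of these data known. The deposited values of each library are a signal: reads of a transcript over 1 factor for the library. Divided by the smallest value above 0, 100% of them came out whole to within 0.01, which gave back whole reads. The log2 column, ratio column and p-value column, also deposited, hold the authors' fold change and adjusted p, copied as their own. Per the submitters' processing notes the build was Sscrofa11.1, with R 4.1.2, FastQC 0.11.8 and DESeq2 1.33.1 named without a role. The sources used here give no aligner, counter or strand handling. The 32 genes were placed by accession in the RefSeq table, and 14 overlap another annotated gene, so reads may be shared.

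Genes reaching 10 normalized counts in 3 or more libraries were fitted with limma 3.58.1 (R 4.3.3) with a mean-variance trend on log2(value + 0.5), without covariates. A fold change on this scale understates that of genes with few reads. The design named this branch for normalized values. P-values are two-sided and Benjamini-Hochberg adjusted. edgeR 4.0.16 and DESeq2 1.42.0 were run on the recovered reads as alternatives, and the limma and edgeR fits were tested on simulated counts. Values are given by library for genes with an unadjusted p under 0.05 or groups without overlap and for the 2 of smallest p in each role group, and other genes shown this way were chosen after their values were seen. Beside the 38 further genes around the cycle, 2 others fixed with them are not reported here.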

Additional observations from a re-analysis of the deposited data

Results flagged for a closer look

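In 2 of the 32 genes 1 of the 4 S100a1 libraries stood far from the others, its distance to the nearest being most of the whole range of the group. Chance alone gives such a value in about 1 of 20 groups, so 2 of 32 is near what chance gives. The share over all genes was not computed. Both were the high value of S100a1 replicate 1, a library that was the highest in 17.2% and the lowest in 24.1% of all genes tested. ME3, the mitochondrial NADP-dependent malic enzyme, had 6249 normalized counts there against 4651 in the next library, and SLC25A13, the aspartate-glutamate carrier citrin, had 1888 against 1439.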

How the results depend on the processing

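Over 20 alternative settings 0 of the 32 genes passed the adjusted threshold, and the smallest adjusted p was 0.401, that of ME1 in DESeq2. The count of all genes past the threshold was 2 in limma and in edgeR, 1 with median centring, 90 in DESeq2, 0 with the cardiomyocyte markers as covariate, and 0 to 3 with 1 library left out. Of the 32 genes, 1 had an unadjusted p under 0.05 in limma and in edgeR (8.27% and 8.52% of all genes tested), 0 with quantile normalization (8.08%), 3 in DESeq2 (8.67%), 0 with the marker covariate (10.4%), and 0 to 4 with 1 library left out (4.94% to 10.5%). With median centring it was also 1 (8.87%), but that gene was NNT, whereas ME1 was at an unadjusted p of 0.0596. With the replicate number as a block, 0 of all genes and 0 of the 32 passed the threshold, and 2 of the 32 had an unadjusted p under 0.05 (6.46% of all genes tested). The labels do not say that the numbers pair the samples. The correlations of same-numbered libraries were -0.022, -0.076 and 0.083, against -0.16 to 0.20 between differently numbered ones. These few values cannot decide whether the samples were paired. S100a1 replicate 4, with no hrLuc library of the same number, adds nothing to the fold changes of the block fit. The median log2 fold change of the 32 genes ran from -0.014 to 0.067. The sign held in 13 genes under every setting that gave a value, among them ME1, ACLY, NNT, PCK2, SUCLG1, SUCLG2, MPC2, SLC25A10 and SLC25A12, and changed under at least 1 setting in the other 19, whose log2 fold changes were at most 0.080 in size. PCK2 gave no value with the filter of 50. The cause of these differences between settings was not tested. With 3 against 4 libraries, intervals of the 32 genes bound most changes to within 0.5 on the log2 scale, but not those of ME1, ACLY and PCK2.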

Other observations

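Genes of fatty acid synthesis beyond ACLY and ME1 were looked at after the high values of hrLuc replicate 1 had been seen, so they are a description. SCD, stearoyl-CoA desaturase, had 2651, 743 and 343 normalized counts in hrLuc and 130, 243, 171 and 359 in S100a1. FASN, fatty acid synthase, had 4984, 2383 and 2206 in hrLuc and 1564, 2382, 1815 and 2125 in S100a1. ELOVL6, a fatty acid elongase, had 931, 685 and 424 in hrLuc and 415, 489, 426 and 439 in S100a1. THRSP, looked at with them, had 323, 99.4 and 108 in hrLuc and 52.4, 153, 23.9 and 118 in S100a1. For SCD, FASN, ELOVL6 and THRSP hrLuc replicate 1 was the highest of the 7 libraries, as it was in 18.4% of all genes tested, and the groups overlapped. In SCD and ELOVL6 hrLuc replicate 2 also lay above every S100a1 library. The log2 fold changes were -2.06 ± 0.61 (SCD), -0.61 ± 0.27 (FASN), -0.55 ± 0.22 (ELOVL6) and -1.13 ± 0.65 (THRSP). Their adjusted p ran from 0.534 to 0.646 in limma. ACACA, acetyl-CoA carboxylase, did not follow this order. It had 3369, 2854 and 2798 in hrLuc and 2968, 3679, 3134 and 3371 in S100a1, with S100a1 replicate 2 the highest. The log2 fold change of ACACA was 0.13 ± 0.096 (adjusted p = 0.722, limma). SREBF1, a transcription factor of lipid synthesis, ranged from 925 to 1061 in hrLuc and from 775 to 1040 in S100a1, and hrLuc replicate 1 was the lowest of its group.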
